A study of Homo sapiens with 9 samples.

Results

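The calpains are cysteine proteases that are switched on by calcium and cut a limited number of sites in their substrates. The 8 genes described here are 6 genes of calpain large subunits (CAPN1, CAPN2, CAPN3, CAPN5, CAPN6 and CAPN7), CAPNS1 for the small regulatory subunit, and CAST, which codes for calpastatin, the inhibitor made by the cell itself. All probe sets whose only gene symbol in the annotation of the array was one of these 8 were taken, which gave 20 of the 54613 probe sets that are not array controls and 8 of the 19775 genes with a probe set of their own. The genes were listed with results of these arrays known: CAPN6 was selected on its low log2 value in spheres against adherent cells, which was among the largest differences already seen, and how the other genes were chosen is not recorded. Values of the 8 genes are therefore given as a description, without p-values.

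The 2 conventional calpains, µ-calpain (large subunit CAPN1) and m-calpain (large subunit CAPN2), each pair with the CAPNS1 subunit and are held in check by calpastatin. In muscle, conventional calpains take part in the fusion of myoblasts and in the remodelling of adhesions and the membrane skeleton, while CAPN3 is the calpain of skeletal muscle, bound to titin in the sarcomere and mutated in a limb-girdle muscular dystrophy. CAPN6 is a family member without the catalytic cysteine, expressed in embryonic muscle of the mouse and described with microtubules in cultured cells. CAPN5 and CAPN7 lack the calcium-binding domain shared by the conventional large subunits.

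RNA was measured in Rh30, an established human cell line of fusion-positive rhabdomyosarcoma (FP-RMS) that expresses the PAX3-FOXO1 fusion protein, in 3 groups of 3 arrays. Xenografts were tumors of Rh30 cells in immunodeficient SCID/beige mice. The labels describe implantation under the skin of the flank in Matrigel, with cells taken from either culture, whereas the methods of the study describe injection of adherent cells in PBS into the gastrocnemius muscle, so the route is not settled. Spheres, also called rhabdospheres, were grown in Neurobasal media with insulin at 50 µg/ml, bFGF at 80 ng/ml, EGF at 40 ng/ml and B27 at 1X, and adherent cells as a monolayer in serum-containing medium. For the arrays, the methods of the study give the time in sphere culture in hours and name no serial passage. All groups carry the fusion gene. They differ in medium, serum and attachment at once, and the tumors also hold host cells of the mouse, whose RNA can bind human probes in part. One cell line was used, so the spread between arrays is that of Rh30. The study describes biological triplicates, but the labels do not say whether arrays of a group came from separate cultures or mice.

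The values are log2 values from robust multi-array averaging (RMA), so 1 unit is a 2-fold difference. Levels of different probe sets cannot be set against each other, because probes bind with different strength, and only differences between groups are compared. In whole tumors and cultures, fewer cells of a type and less RNA per cell cannot be told apart. Each array had a median between 4.78 and 4.87, and arrays correlated with r of 0.990 to 0.998 within groups and 0.965 to 0.987 between groups, across probe sets. The muscle identity of Rh30 was seen in MYOD1, at 10.65 to 11.17 over all arrays, while MYF5 lay at 2.68 to 3.21, below the median of every array. The mean over 8 markers of Rh30 and myoblast-like identity was lowest in spheres. It was 8.80 to 9.03 in xenografts, 8.60 to 8.65 in spheres and 9.03 to 9.15 in adherent cells. The mean over 6 fibroblast and matrix markers was 6.76 to 7.30 in xenografts, 5.88 to 6.15 in spheres and 6.005 to 6.18 in adherent cells, and the mean over 11 measured adult muscle markers was 5.21 to 5.47 in xenografts, 4.78 to 4.93 in spheres and 4.86 to 4.89 in adherent cells. The 3′ minus 5′ control value of ACTB, which grows as RNA is shorter, was 2.30 to 2.75 in xenografts, 3.15 to 3.31 in spheres and 2.07 to 2.67 in adherent cells. The same value of GAPDH overlapped between all groups, at 0.41 to 0.64 in xenografts, 0.59 to 0.67 in spheres and 0.42 to 0.68 in adherent cells.

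CAPN6 had by far the widest spread of the 8 genes, and the 250 bases before its annotated start are shown for that reason. The gene lies on chromosome X, and the stretch is chrX:111270484-111270733 on the minus strand of GRCh38.p14, from RefSeq, printed 5′ to 3′ with an AP-1 motif (TGACTCA) and a GC box (GGGCGG) in capitals.
CAPN6 promoter: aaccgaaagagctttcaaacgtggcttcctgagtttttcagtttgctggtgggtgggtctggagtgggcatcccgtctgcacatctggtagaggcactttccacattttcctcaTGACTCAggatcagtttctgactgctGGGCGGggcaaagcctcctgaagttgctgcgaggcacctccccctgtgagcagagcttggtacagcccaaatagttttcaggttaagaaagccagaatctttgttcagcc
The AP-1 motif lies 136 to 130 bases and the GC box 110 to 105 bases before the start. On either strand, the AP-1 letters were found before 4.2% of all 35116 annotated starts and the GC box letters before 42.6%. The table held 17 starts of the 8 genes, none of them of CAPN5. The AP-1 letters stood before 3 of these 17 starts, of CAPN2, CAPN6 and CAST, and the GC box letters before 10. The letters CAGCTG, a form of the E-box that myogenic factors bind, stood before 3 of the 17 starts (CAPN3, CAPN7 and CAPNS1), against 14% of all starts. TATAAA was found before 1 of the 17, a start of CAST, against 10.7% of all starts. These matches are letters in a window and were not tested as binding sites.

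**Figure D1:**
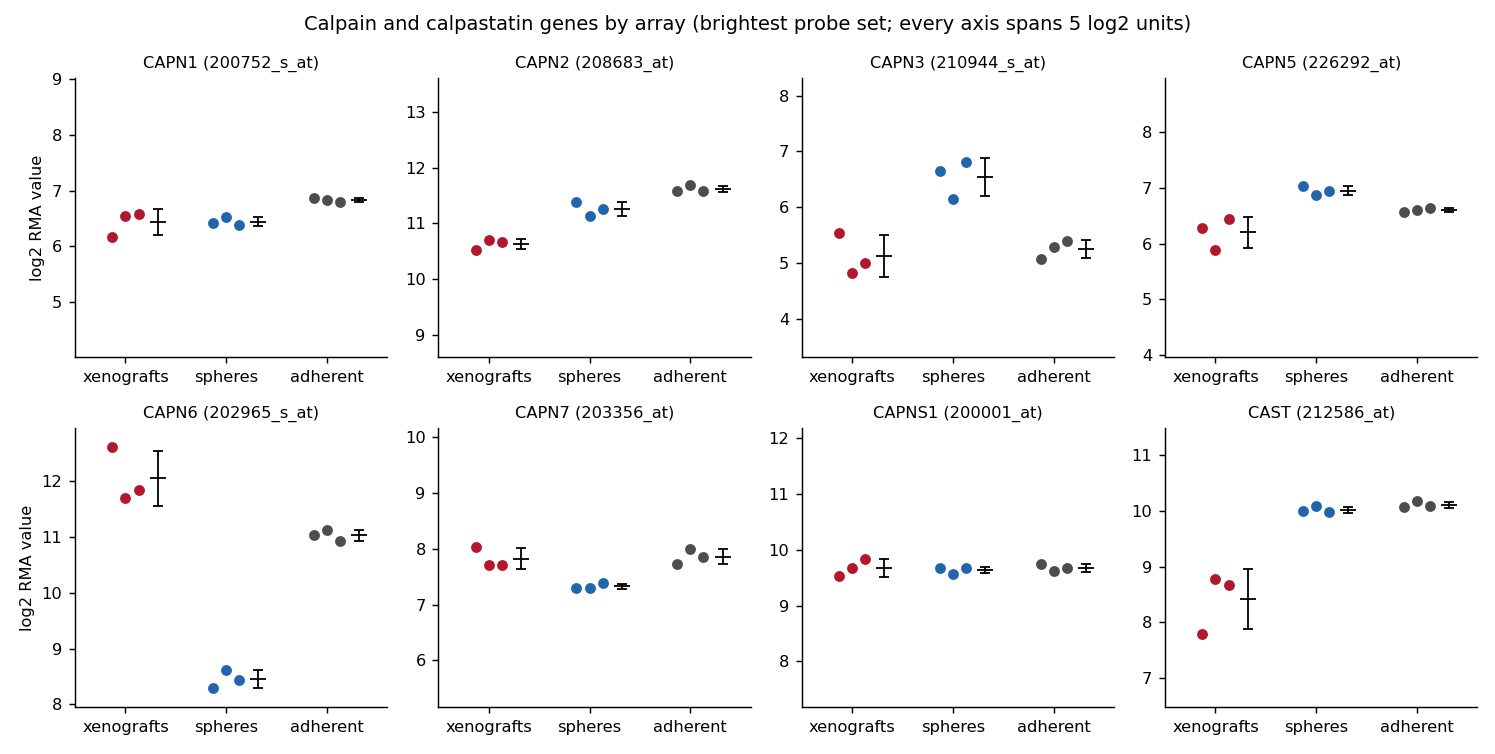
Log2 RMA value (vertical axis) of the brightest probe set of each of the 8 genes on every array, with xenografts, spheres and adherent cells from left to right. Points are arrays, and the bar beside them is the mean with its SD over 3 arrays. CAPN6 reached 12.61 in a xenograft and 8.30 in spheres, while CAPNS1 stayed within a range of 0.31 over all 9 arrays.

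Across the 8 genes, growth as spheres went with a low level of CAPN6 and higher levels of CAPN3 and of some calpastatin probe sets, and growth as xenografts with a high level of CAPN6 and low levels of calpastatin and CAPN2. In a limma fit of all 54613 probe sets, with a change called at an adjusted p under 0.05, 13 of the 20 probe sets passed in spheres against adherent cells (7 higher, 6 lower), where 26.0% of all probe sets did (13.3% higher, 12.6% lower). For xenografts against adherent cells 8 of the 20 passed (2 higher, 6 lower), where 23.0% of all did (9.78% higher, 13.2% lower). For xenografts against spheres 14 of the 20 passed (3 higher, 11 lower), where 39.1% of all did (20.6% higher, 18.5% lower). In these 3 comparisons the values of the groups were apart, with no overlap of arrays, for 14, 9 and 14 of the 20 probe sets, beside 41.6%, 38.5% and 47.4% of all probe sets.

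Taken at the brightest probe set of each gene, 5 of the 8 genes passed in spheres against adherent cells (1 higher, 4 lower), beside 29.8% of all genes (13.5% higher, 16.3% lower). In xenografts against adherent cells 5 of the 8 passed (1 higher, 4 lower), beside 26.9% of all genes (12.6% higher, 14.3% lower). In xenografts against spheres 6 of the 8 passed (2 higher, 4 lower), beside 44.0% of all genes (25.7% higher, 18.3% lower). Arrays were without overlap for 6, 5 and 6 of the 8 genes, beside 47.7%, 43.9% and 52.8% of all genes. Since the list was drawn up with these comparisons known, nothing is read from the counts. The comparisons against adherent cells share the adherent arrays.

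CAPN1, the large subunit of µ-calpain, gave opposite answers from its 2 probe sets. At the brighter one (200752_s_at) the log2 values were 6.16, 6.55 and 6.59 in xenografts, 6.42, 6.53 and 6.39 in spheres, and 6.86, 6.83 and 6.80 in adherent cells. Adherent arrays were the highest and did not overlap with either other group, whereas xenografts and spheres overlapped. The difference was -0.39 (SE 0.12, 95% interval -0.64 to -0.13) for spheres against adherent cells and -0.40 (SE 0.12, -0.65 to -0.15) for xenografts against adherent cells. Both passed the threshold narrowly. The call for spheres was lost on leaving out adherent array 1, 2 or 3 or sphere array 1 or 3 (-0.40 to -0.36), and that for xenografts on leaving out adherent array 1, 2 or 3 or xenograft 1 (-0.42 to -0.27). The other probe set (232012_at) read 5.41, 5.79 and 5.61 in xenografts, 6.59, 6.42 and 6.51 in spheres, and 5.95, 5.71 and 5.81 in adherent cells. Here spheres were the highest group, without overlap, at 0.69 over adherent cells (SE 0.11), and xenografts lay -0.91 from spheres (SE 0.11) and -0.22 from adherent cells (SE 0.11), the last of which did not pass. The direction of CAPN1 in spheres is therefore not settled by these arrays.

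CAPN2, the large subunit of m-calpain, was lower in xenografts than in both cultures at its brighter probe set. At 208683_at the log2 values were 10.52, 10.70 and 10.67 in xenografts, 11.38, 11.14 and 11.26 in spheres, and 11.59, 11.68 and 11.59 in adherent cells. No 2 groups overlapped, with adherent cells highest and xenografts lowest. Xenografts lay -0.99 from adherent cells (SE 0.10, 95% interval -1.20 to -0.78), which made adherent cells 1.99-fold higher, and this passed with each array left out in turn. Spheres lay -0.36 from adherent cells (SE 0.10, -0.57 to -0.15), a call that was lost without adherent array 2, sphere array 2 or sphere array 3 (-0.33, -0.30 and -0.36). The difference of xenografts from spheres was -0.63 (SE 0.10). The second probe set of CAPN2 (214888_at) lay near the medians of the arrays, at 5.15 to 5.18 in xenografts, 5.18 to 5.42 in spheres and 4.92 to 5.23 in adherent cells. It passed in none of the comparisons (0.15, 0.06 and -0.09), so the lower level of CAPN2 in xenografts rests on 1 probe set. CAPN8, its neighbour on chromosome 1, was dim, at percentile 14.8 of all probe sets. It read 2.98 in xenografts, 2.66 in spheres and 2.57 in adherent cells on average and passed in none either.

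CAPNS1, the small subunit that stabilises both conventional large subunits, was the most even of the 8 genes. Its only probe set (200001_at) read 9.53, 9.67 and 9.84 in xenografts, 9.67, 9.58 and 9.68 in spheres, and 9.74, 9.62 and 9.67 in adherent cells. All groups overlapped. The differences were -0.03 for spheres against adherent cells (95% interval -0.25 to 0.19), 0.00 for xenografts against adherent cells (-0.22 to 0.22) and 0.04 for xenografts against spheres (-0.18 to 0.26). The 3 intervals reach no farther than 0.26 from 0, and smaller differences remain within them.

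Calpastatin, which binds the calcium-loaded conventional calpains and blocks them, was lower in xenografts than in either culture at each of its 3 brighter probe sets, while its probe sets disagreed about spheres. At the brightest (212586_at) CAST read 7.79, 8.78 and 8.68 in xenografts, 9.99, 10.09 and 9.97 in spheres, and 10.08, 10.17 and 10.09 in adherent cells. Xenografts were lowest without overlap, xenograft 1 was the lowest of all, and spheres and adherent cells overlapped. The difference of xenografts from adherent cells was -1.69 (SE 0.20, 95% interval -2.14 to -1.25), or 3.24-fold higher in adherent cells, and that of spheres was -0.10 (SE 0.20, -0.54 to 0.35).

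At the next probe sets of CAST spheres were above adherent cells. At 207467_x_at the values were 7.74, 8.37 and 8.40 in xenografts, 9.69, 10.02 and 9.99 in spheres, and 8.88, 8.88 and 8.91 in adherent cells. At 208908_s_at they were 6.54, 7.06 and 7.09 in xenografts, 8.65, 8.78 and 8.69 in spheres, and 7.58, 7.73 and 7.66 in adherent cells. At both, spheres were the highest and xenografts the lowest group, with no overlap. Spheres were 2.01-fold and 2.08-fold over adherent cells (log2 differences 1.01, SE 0.16, and 1.05, SE 0.14), and xenografts lay -0.72 (SE 0.16) and -0.75 (SE 0.14) from adherent cells. For xenografts against spheres the 3 probe sets were close to each other, at -1.60, -1.73 and -1.81 (SE 0.20, 0.16 and 0.14). These calls were kept with each array left out in turn. Under the methods' t-test with Benjamini-Hochberg adjustment, CAST passed for xenografts against adherent cells at none of its probe sets, while the calls for xenografts against spheres at these 3 probe sets were kept.

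The disagreement was also seen as a gap between probe sets of CAST within each array. The value of 208908_s_at minus that of 212586_at was -1.25, -1.72 and -1.59 in xenografts, -1.34, -1.30 and -1.28 in spheres, and -2.50, -2.44 and -2.43 in adherent cells. Adherent cells stood apart from both other groups, which overlapped each other. CAST transcripts begin at several starts, 5 of them in the promoter table, and are spliced in many forms. Which forms each probe set reads is not given in the sources used here. The 3′ minus 5′ value of ACTB set spheres apart (3.15 to 3.31), while xenografts (2.30 to 2.75) and adherent cells (2.07 to 2.67) overlapped. That of GAPDH did not set spheres apart (0.59 to 0.67 in spheres, 0.42 to 0.68 in adherent cells). The part of RNA length in the gap between CAST probe sets and in the levels in spheres, CAPN6 and CAPN3 included, was not tested. The last 2 probe sets of CAST (1564010_at and 212580_at) were dim, under the 20th percentile of all probe sets, at 2.90 to 3.03 and 2.20 to 2.96 in xenografts, 2.86 to 3.28 and 2.89 to 3.57 in spheres, and 2.72 to 2.90 and 2.97 to 3.05 in adherent cells. Of these, 212580_at passed only for xenografts against spheres (-0.57), with overlapping arrays, and lost the call without any adherent array, sphere array 2 or 3, or xenograft 2 or 3 (-0.64 to -0.37).

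**Figure D2:**
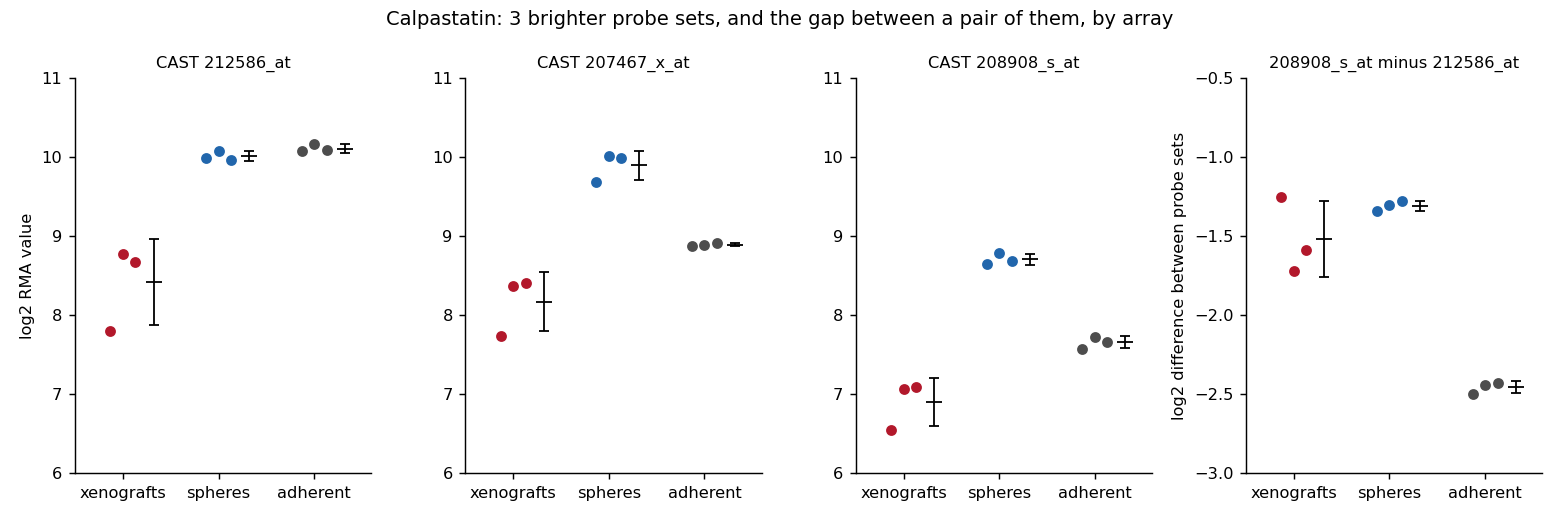
Log2 RMA values of the 3 brighter CAST probe sets by array, and in the last panel the log2 difference between 208908_s_at and 212586_at on each array. Points are arrays, and the bar is the mean with its SD over 3 arrays. Xenografts are lowest in the first 3 panels, spheres exceed adherent cells in the second and the third only, and the gap of adherent cells, -2.50 to -2.43, lies apart from the other groups.

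CAPN3, the muscle calpain, was higher in spheres than in both other groups at all 3 of its probe sets. At the brightest (210944_s_at) it read 5.54, 4.81 and 5.002 in xenografts, 6.65, 6.15 and 6.80 in spheres, and 5.07, 5.29 and 5.39 in adherent cells. Spheres did not overlap with the others, and xenografts and adherent cells overlapped. Spheres were 2.44-fold over adherent cells (log2 difference 1.29, SE 0.20, 95% interval 0.85 to 1.72), and xenografts lay -1.42 from spheres (SE 0.20). Xenografts lay -0.13 from adherent cells (SE 0.20, -0.57 to 0.30). Of the 11 adult muscle markers, 1 was higher, 2 were lower and 8 were not called in spheres against adherent cells. In xenografts against adherent cells 5 were higher and 1 was lower. Of all genes 13.5% were higher and 16.3% lower in spheres, and 12.6% and 14.3% in xenografts. The other probe sets (214475_x_at and 211890_x_at) put spheres 1.06 (SE 0.15) and 0.82 (SE 0.21) over adherent cells. The last of these lost its call without adherent array 1 or sphere array 3, at 0.74 in either case. Under the methods' t-test with Benjamini-Hochberg adjustment, 211890_x_at passed neither for spheres against adherent cells nor for xenografts against spheres. The other probe sets of CAPN3 kept both calls. All 3 are named _s_at or _x_at, so CAPN3 had no probe set left when those were removed. Myogenin, which drives muscle differentiation, averaged 9.98 in xenografts, 9.07 in spheres and 9.98 in adherent cells, so it was lowest where CAPN3 was highest. The adult muscle marker higher in spheres was CKM, the creatine kinase of muscle. It averaged 6.39 in xenografts, 7.15 in spheres and 6.27 in adherent cells (0.88 for spheres against adherent cells, SE 0.12). Other adult muscle markers were lower in spheres than in adherent cells. Myoglobin (MB) averaged 5.77 in xenografts, 5.74 in spheres and 6.76 in adherent cells, and ATP2A1 averaged 5.67, 4.55 and 4.97. CKM was thus highest where CAPN3 was, and MB and ATP2A1 were not.

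CAPN5, an atypical calpain expressed in many tissues and mutated in an inherited eye disease, was highest in spheres. At 226292_at it read 6.28, 5.89 and 6.43 in xenografts, 7.03, 6.87 and 6.95 in spheres, and 6.56, 6.60 and 6.64 in adherent cells. No groups overlapped. Xenografts lay -0.75 from spheres (SE 0.13), and this passed with each array left out. The difference of spheres from adherent cells was 0.35 (SE 0.13, 95% interval 0.07 to 0.63), which missed the threshold, and passed without xenograft 2 or 3. The difference of xenografts from adherent cells was -0.40 (SE 0.13), which passed, and which missed the threshold without any single adherent or sphere array or without xenograft 2 (-0.42 to -0.24). Its dimmer probe set (205166_at) put spheres 0.47 over adherent cells (SE 0.11) and xenografts 0.09 over adherent cells (SE 0.11), and xenografts -0.38 from spheres, a call lost without sphere array 1 (-0.31).

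CAPN6 followed the order xenografts, adherent cells, spheres, and each step was larger than the spread within groups. At 202965_s_at it read 12.61, 11.70 and 11.85 in xenografts, 8.30, 8.62 and 8.43 in spheres, and 11.05, 11.13 and 10.93 in adherent cells. No groups overlapped, and xenograft 1 was the highest array. Spheres lay -2.59 from adherent cells (SE 0.20, 95% interval -3.02 to -2.16), which made adherent cells 6.01-fold higher. Xenografts were 2.02-fold over adherent cells (1.02, SE 0.20, 0.59 to 1.45) and 12.2-fold over spheres (3.60, SE 0.20, 3.17 to 4.03). With each array left out in turn, the fold over adherent cells ranged between 1.67 and 2.29 and the fold over spheres between 10.01 and 13.7, and all calls were kept. Under the methods' t-test with Benjamini-Hochberg adjustment, CAPN6 no longer passed for xenografts against adherent cells at any probe set, while its calls for spheres against adherent cells and xenografts against spheres were kept. Because CAPN6 was selected on its low values in spheres, the kept calls that involve spheres follow from that selection and are no separate support.

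The second probe set of CAPN6 gave the same order. At 202966_at the values were 11.07, 10.02 and 10.17 in xenografts, 5.95, 6.24 and 6.08 in spheres, and 9.09, 9.30 and 9.02 in adherent cells. Again no groups overlapped. The differences were larger than at the first probe set, at -3.05 for spheres against adherent cells (SE 0.22, 8.28-fold higher in adherent cells), 1.28 for xenografts against adherent cells (SE 0.22, 2.43-fold) and 4.33 for xenografts against spheres (SE 0.22, 20.1-fold). The last probe set of CAPN6 (217387_at) was dim on all arrays, at 2.11 to 2.69 in xenografts, 1.65 to 2.14 in spheres and 1.95 to 2.41 in adherent cells, under the 20th percentile of all probe sets, and passed in no comparison.

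The array that stood out in these 2 genes was the same. Xenograft 1 had the highest CAPN6 and the lowest CAST of the xenografts, and also the highest mean of fibroblast and matrix markers, 7.30 against 6.76 and 6.77 in xenografts 2 and 3. Its mean of adult muscle markers was 5.21, the lowest of the xenografts. Its mean over 5 endothelial markers, 4.32, was also the lowest (4.53 and 4.69 in xenografts 2 and 3). Over 4 macrophage and leukocyte markers its mean was 4.22, against 4.16 and 4.39. Of the 6 fibroblast and matrix markers, 5 were higher and 1 was lower in xenografts than in adherent cells. Of all genes 12.6% were higher and 14.3% lower there. The part of host or stromal cells in the levels of CAPN6 and CAST was not tested. Without xenograft 1, CAPN6 was 1.67-fold over adherent cells, and the fibroblast and matrix mean of the other 2 xenografts was also above the 6.005 to 6.18 of adherent cells.

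**Figure D3:**
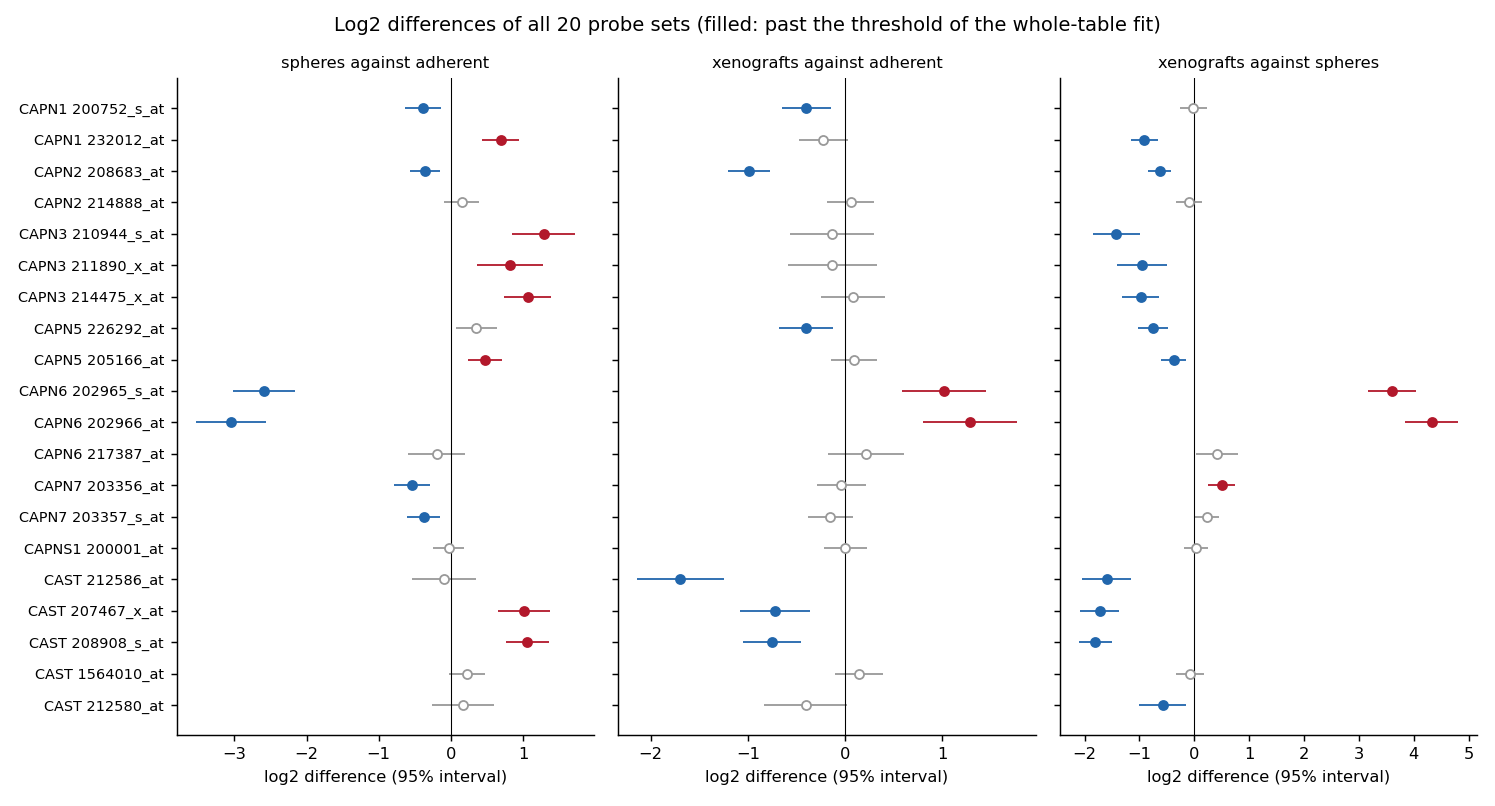
Log2 differences (horizontal axis) of all 20 probe sets in 3 comparisons, with 95% intervals from the limma fit. Red and blue filled points passed the threshold as higher and lower in the group named first, and open points did not. CAPN6 spans -3.05 to 4.33 over the panels, and CAST lies to the left of 0 at its 3 brighter probe sets in xenografts against adherent cells and against spheres.

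CAPN7, which carries MIT domains and binds ESCRT-III proteins such as IST1, was lower in spheres. At 203356_at it read 8.04, 7.72 and 7.72 in xenografts, 7.30, 7.29 and 7.38 in spheres, and 7.73, 8.004 and 7.85 in adherent cells. Spheres were below all other arrays, and xenografts and adherent cells overlapped. Spheres lay -0.54 from adherent cells (SE 0.11, 95% interval -0.78 to -0.29), and xenografts were 0.50 over spheres (SE 0.11) and -0.04 from adherent cells (SE 0.11, -0.29 to 0.21). The second probe set (203357_s_at) put spheres -0.38 from adherent cells (SE 0.11), a call that was lost without adherent array 2 or 3 or sphere array 2 (-0.39 to -0.30), and xenografts 0.23 over spheres, which did not pass.

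Of the 7 genes with several probe sets, 2 (CAPN3 and CAPN7) had every probe set called one way in spheres against adherent cells, 1 (CAPN1) had calls both ways, and the other 4 had some called and some not. In xenografts against adherent cells 5 of the 7 had some called and some not, and 2 had none, while in xenografts against spheres 2 (CAPN3 and CAPN5) had every probe set called one way and 5 had some. The genes with the widest differences, CAPN6 and CAST, thus rest on their brighter probe sets.

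Genes with a profile like those of CAPN6 and CAPN2 were looked up among the 4333 other genes whose range over the 9 arrays was at least 1 log2 unit. The 5 most like CAPN6 by Pearson correlation over 9 arrays were MTERF3 (0.995), COMMD5 (0.994), GMNN (0.992), NOTCH1 (0.991) and ETNK1 (0.990). GMNN codes for geminin, an inhibitor of DNA replication licensing, MTERF3 for a mitochondrial transcription termination factor, and NOTCH1 for a receptor of the Notch pathway. At its brightest probe set NOTCH1 averaged 8.65 in xenografts, 5.63 in spheres and 8.08 in adherent cells, and GMNN 10.31 in xenografts, 8.74 in spheres and 9.95 in adherent cells. All 5 were lowest in spheres and highest in xenografts, as CAPN6 was. The 5 most like CAPN2 were SCRN1 (0.995), MGAT5 (0.994), RABEP1 (0.994), DKFZP586I1420 (0.991) and MAML2 (0.991). MAML2, a coactivator of Notch signaling, averaged 3.46 in xenografts, 4.74 in spheres and 5.54 in adherent cells. The 9 arrays fall into 3 groups, so such values mostly describe the order of 3 group means, and no p is given.

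**Figure D4:**
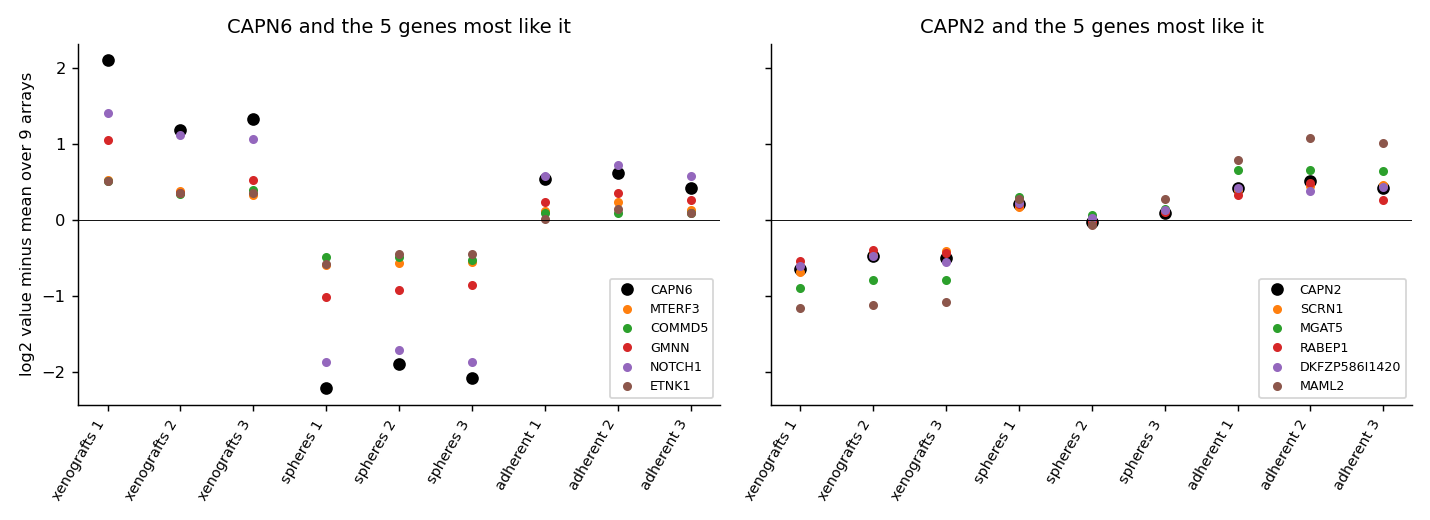
Log2 value minus the mean over the 9 arrays (vertical axis) for CAPN6 and for CAPN2 (large black points) and for the 5 genes most like each, by array from xenografts through spheres to adherent cells. The genes like CAPN6 are below 0 in spheres and above 0 elsewhere, and those like CAPN2 are below 0 in xenografts and above 0 in adherent cells.

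Few genes of the rest of the calpain family were called, and several of the genes not called were dim. These genes and the lists below were chosen with earlier results of these data known. Most list genes named below were taken for their large called differences. Their adjusted p-values are therefore descriptions and not independent tests. Of 9 other calpain genes, none was higher and 1 was lower in spheres than in adherent cells, with a median difference of -0.04, equal to that of all genes (-0.04). Of all genes 13.5% were higher and 16.3% lower. In xenografts 1 was higher and 0 lower than in adherent cells, beside 12.6% and 14.3% of all genes. Against spheres 2 (CAPN13 and CAPN15) were higher and 0 lower in xenografts, beside 25.7% and 18.3% of all genes. CAPN15, a relative of the fly gene small optic lobes, averaged 5.96 in spheres and 6.54 in adherent cells at 230295_at (-0.58, SE 0.13, adjusted p = 0.00609 by limma), and its other probe set changed in the same direction (-0.46, SE 0.11). In xenografts against adherent cells CAPN15 did not pass at that probe set (0.10, SE 0.13), while 204275_at fell by 0.72 (SE 0.11), so the probe sets disagree there. Against spheres, xenografts were higher at 230295_at (0.68, SE 0.13), while 204275_at had the opposite sign and did not pass (-0.27, SE 0.11). CAPN13 rose in xenografts to 6.09, against 5.67 in adherent cells (0.42, SE 0.09, adjusted p = 0.007 by limma), with its other 2 probe sets not called. CAPN8, CAPN9, CAPN10, CAPN11, CAPN12, CAPN14 and CAPNS2 passed in no comparison at their brightest probe sets, with differences from adherent cells of -0.25 to 0.24 in spheres and -0.11 to 0.41 in xenografts. Of these, CAPN14 lay at percentile 2.7, CAPN8 at 14.8 and CAPN9 at 20.1 of all probe sets, and CAPN11 and CAPN12 at 32.6 and 35.1. Missing calls at dim probe sets say little about the genes.

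The substrates of the conventional calpains at the membrane skeleton and adhesions were mostly lower in xenografts. Of 11 measured genes of 13, 1 was higher and 7 were lower in xenografts than in adherent cells, with a median of -0.54 beside 0.08 for all genes. In spheres against adherent cells 2 were higher, 2 lower and 7 not called, with a median of -0.25 beside -0.04. Of all genes 12.6% were higher and 14.3% lower in xenografts, and 13.5% and 16.3% in spheres. Vinculin (VCL), which links adhesions to actin, was 9.42 in xenografts, 11.03 in spheres and 10.30 in adherent cells, with differences from adherent cells of -0.88 (SE 0.09, limma adjusted p = 3.91e-05) and 0.72 (SE 0.09, 6.96e-05). Cortactin (CTTN) fell in both, by 0.79 in xenografts (SE 0.11) and by 0.60 in spheres (SE 0.11), but 2 of its 4 other probe sets were called in the opposite direction. The same was true of the other vinculin probe set in xenografts, and in spheres it was not called. Spectrin alpha (SPTAN1) fell by 0.61 in xenografts (SE 0.11, limma adjusted p = 0.00281), where 1 of its 4 other probe sets was called the same way and 3 were not called. Talin (TLN1) rose by 0.80 in spheres (SE 0.13, limma adjusted p = 0.000549), with its other 2 probe sets not called. TLN1 was also the 1 gene higher in xenografts (0.57), and SPTAN1 the other gene lower in spheres (-0.49). FLNA and FLNC had no probe set of their own.

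Of the muscle partners and substrates of calpain 3, some were lower and a few higher in xenografts. Of 11 measured genes of 13, 2 were higher, 6 were lower and 3 were not called in xenografts against adherent cells. The median was -0.31 beside 0.08 for all genes. In spheres 1 was higher and 3 lower, with a median of 0.02 beside -0.04. Of all genes 12.6% were higher and 14.3% lower in xenografts, and 13.5% and 16.3% in spheres. Dysferlin (DYSF), which reseals the muscle membrane, averaged 7.28 in xenografts and 8.74 in adherent cells (-1.47, SE 0.17, limma adjusted p = 0.000125). Nebulin (NEB) fell by 1.17 (SE 0.12) and AHNAK, a partner of dysferlin cut by calpain 3, by 0.95 (SE 0.08, limma adjusted p = 1.8e-05). In spheres AHNAK rose by 0.44 (SE 0.08), and titin (TTN), the anchor of CAPN3, and ANKRD2 fell by 0.53 (SE 0.15) and 0.43 (SE 0.13). Of the 5 other probe sets of TTN, 1 was called the same way in spheres and 4 were not called. Desmin (DES) was the other gene lower in spheres (-0.38), and the 2 genes higher in xenografts were TTN (0.50) and SGCA (0.82), a sarcoglycan of the muscle membrane. Centring each array on its median removed the call of TTN in xenografts (0.44). No other probe set of NEB or AHNAK was called in these comparisons.

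Partners of the atypical calpains went several ways. Of 7 genes of ESCRT-III and its disassembly, the machinery that CAPN7 binds, 1 was higher and 2 lower in spheres than in adherent cells. In xenografts 2 were higher and 1 lower. The medians were -0.21 in spheres, beside -0.04 for all genes, and -0.12 in xenografts, beside 0.08. Of all genes 13.5% were higher and 16.3% lower in spheres, and 12.6% and 14.3% in xenografts. The ESCRT counts are small beside these shares, and nothing is read from them. CHMP2A rose in both, by 0.50 in spheres (SE 0.09) and 0.39 in xenografts (SE 0.09). CHMP1A fell by 0.40 and CHMP4B by 0.32 in spheres, and quantile normalization removed the call of CHMP1A (-0.36). The other probe set of CHMP4B was not called. In xenografts VPS4A rose by 0.48 (SE 0.11), and IST1, the partner of CAPN7, fell by 0.33 (SE 0.08, limma adjusted p = 0.016), a call that quantile normalization removed. The other probe set of IST1 was not called.

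CAPN6 has been described with microtubules, and 4 microtubule genes called in these comparisons are given singly, without a count over a list. MAP1B, which binds and stabilises microtubules, averaged 8.05 in xenografts, 10.43 in spheres and 9.42 in adherent cells, with differences from adherent cells of -1.38 (SE 0.10, limma adjusted p = 4.96e-06) and 1.01 (SE 0.10, 1.84e-05). Its group order was the reverse of that of CAPN6. In both comparisons, 1 of the 2 other probe sets of MAP1B was called the same way and 1 was not called. MAP4 fell by 1.05 in xenografts (SE 0.12), where 4 of its 6 other probe sets were called the same way and 1 the other. In spheres MAP4 was higher (0.52). The tubulins TUBB and TUBA1B fell by 0.97 (SE 0.08, limma adjusted p = 6.57e-06) and 0.66 (SE 0.08) in spheres, and most of their other probe sets were called the same way.

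The called substrates in cell death and the cell cycle went both ways in spheres, and nothing is read from their small counts. Of 7 measured genes of 8, 1 was higher and 3 lower in spheres than in adherent cells, with a median of -0.40 beside -0.04 for all genes. In xenografts 0 were higher and 1 was lower, with a median of -0.17 beside 0.08. Of all genes 13.5% were higher and 16.3% lower in spheres, and 12.6% and 14.3% in xenografts. BAX, a pore-forming promoter of apoptosis, averaged 6.68 in spheres and 8.55 in adherent cells (-1.87, SE 0.16, limma adjusted p = 7.55e-06), and its other probe set was called the same way. BID, which calpains can cut into an active form, fell by 0.91 (SE 0.09), with both other probe sets called alike. CCNE1, the cyclin of entry into S phase, fell by 0.97 (SE 0.09), with its other probe set not called. XIAP, an inhibitor of caspases, was the 1 gene higher in spheres (0.72). CASP9, the initiator caspase of the mitochondrial pathway, fell by 0.73 in xenografts (SE 0.14, limma adjusted p = 0.00323). Of its 2 other probe sets, 1 was called the same way and 1 was not called.

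**Figure D5:**
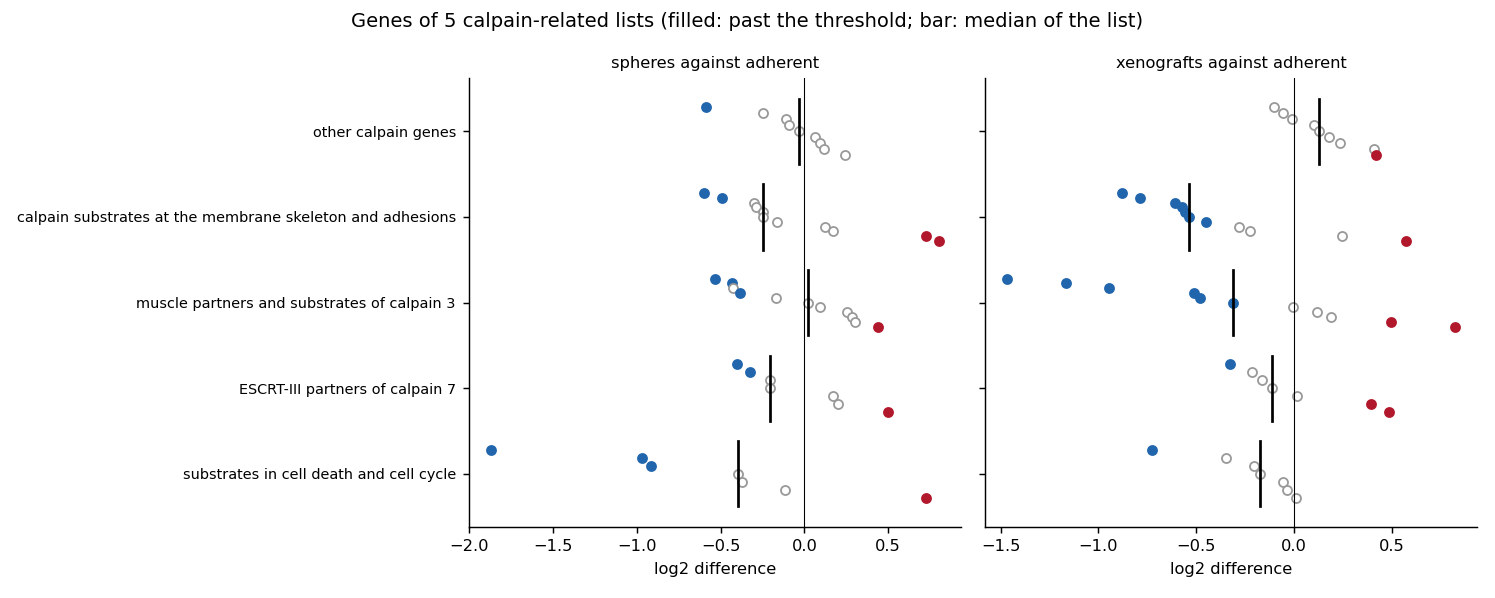
Log2 differences (horizontal axis) of the genes of 5 lists around the calpains, in spheres against adherent cells (left) and xenografts against adherent cells (right). Each point is a gene at its brightest probe set, filled red or blue where it passed as higher or lower, and the black bar is the median of the list. The median of the membrane skeleton list lies at -0.54 in xenografts, and BAX is the farthest point on the left, at -1.87.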

How the data were processed

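Total RNA of 9 Rh30 samples was hybridized to Affymetrix HG-U133 Plus 2.0 arrays. The deposited values are log2 values that the authors made by RMA, whose version is not given in the sources used here. The 62 array control probe sets were set aside, and lmFit and eBayes of limma 3.58.1 (R 4.3.3) were run on the other 54613, with 1 coefficient for each group, 6 residual degrees of freedom and Benjamini-Hochberg adjustment over all of them. For each gene the brightest probe set stood in, meaning the one whose average over all 9 arrays was highest, out of those to which the array's annotation gives a single symbol (41091 with 1 symbol, 1801 with several, 11721 with none). No probe set with several symbols held one of the 8 genes. Intervals are at 95%. Precision is limited by the number of arrays.

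The 8 genes and the gene lists were chosen with earlier results of these data known. Named with values were the 8 genes, every other calpain gene, up to 3 genes of each list with the largest called difference in each comparison against adherent cells, and the 5 genes most like CAPN6 and CAPN2. MYOD1, MYF5, myogenin, CKM, MB and ATP2A1 were named after their values were seen. So were the further called list genes (DES, SGCA, XIAP and values of TLN1, SPTAN1, TTN and MAP4 in the other comparison). The counts and some members of 1 list, of partners of CAPN6, are not reported here. Replicate numbers did not pair the arrays: of 9 pairs with the same number, 2 correlated above 0.1 in their deviations from group means (r -0.18 to 0.18). Promoter sequences came from RefSeq GRCh38.p14. The method was tested on simulated data. Alternatives were quantile normalization, median centring, removal of dim probe sets, separate fits of each pair of groups, robust estimation with a variance trend, the methods' t-test, the replicate block, each array left out, probe sets without _x_at or _s_at, a 2-fold threshold and a gene's mean over its probe sets.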

Additional observations from a re-analysis of the deposited data

How the results depend on the processing

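The count of called probe sets among the 20 was 13, 8 and 14 for spheres against adherent cells, xenografts against adherent cells and xenografts against spheres, and 14185, 12561 and 21330 over all probe sets. Without probe sets named _x_at or _s_at it was 5, 4 and 8 of 12, and 9003, 7813 and 14066 over all, since fewer probe sets were tested. With an added 2-fold threshold it was 6, 3 and 6, and 3019, 1507 and 3957 over all. With the methods' t-test after Benjamini-Hochberg adjustment it was 1 for xenografts against adherent cells (4825 over all) and 9 for xenografts against spheres (10413 over all), and the cause was not tested. At the brightest probe sets of the 8 genes that adjusted t-test kept 5 of 5 calls and added CAPN5 for spheres against adherent cells, kept 1 of 5 (CAPN2, with CAPN1, CAPN5, CAPN6 and CAST lost) for xenografts against adherent cells, and kept 4 of 6 (CAPN5 and CAPN7 lost) for xenografts against spheres. With each array left out in turn it was 10 to 14, 6 to 8 and 13 to 14, and over all 11391 to 15595, 8057 to 13825 and 15906 to 21775, the 8057 being without adherent array 2. With the replicate block it was 13, 8 and 13, and 13562, 11273 and 20294 over all. Median centring turned the split of all calls in xenografts against adherent cells to 3761 higher and 8247 lower, against 5343 and 7218 as deposited, with 5771 and 6033 after quantile normalization.

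Of 396 values of the 8 genes at their brightest probe sets under the alternatives other than the t-test and the 2-fold threshold, 348 kept direction and call, 25 lost the call, 6 gained it and 17 changed sign, and of 192 values of list genes 180, 3, 3 and 6 did. The largest changes of sign came from averaging a gene over its probe sets, which put CAPN1 at 0.15 and CAST at 0.47 for spheres against adherent cells, since their probe sets disagree. The other changes of sign were of values near 0. Quantile normalization put CAPNS1 at 0.019 for spheres against adherent cells, CAPN7 at 0.11, CHMP1A at 0.029, CCNE1 at 0.070 and CAPN10 at 0.031 for xenografts against adherent cells, and CAPN1 at 0.15, SPTAN1 at 0.020 and CAPN14 at -0.046 for xenografts against spheres. Centring put CAPNS1 at -0.049 and BID at -0.045 for xenografts against adherent cells. With an array left out in turn, CAPNS1 ranged over -0.064 to 1.6e-04 for spheres against adherent cells, over -0.079 to 0.078 for xenografts against adherent cells and over -0.045 to 0.11 for xenografts against spheres, CAPN3 over -0.34 to 0.020 and CAPN7 over -0.14 to 0.033 for xenografts against adherent cells, and CAPN1 over -0.092 to 0.12 for xenografts against spheres. Quantile normalization also ended the calls of CAPN1 (-0.27) and CAPN5 (-0.30) for xenografts against adherent cells. At its brightest probe set CAPN6 kept its direction and its calls under these alternatives, and lost the call for xenografts against adherent cells under the adjusted t-test only. Its selection on low values in spheres means that kept calls involving spheres are no separate support.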
